A study of Mus musculus with 6 samples.

Results

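The genes described here are 10 enzymes of serine synthesis and folate-dependent one-carbon metabolism, taken by name from the 55426 features of the count table. Phgdh, Psat1 and Psph make up serine synthesis, Shmt2, Mthfd2, Mthfd2l, Mthfd1l and Aldh1l2 the mitochondrial arm, and Shmt1 and Mthfd1 the cytosolic arm. The set was selected on measured values, namely the difference between 1% and 21% O2 in these same samples, so that difference is given for the 10 genes as a description, without p-values, and their calls are counted but support nothing. All 10 passed the filter on low counts and belong to the 16207 genes tested.

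The RNA came from mouse pancreatic stellate cells (PSCs), a precursor of some cancer-associated fibroblasts, cocultured with mT3, a line of mouse pancreatic ductal adenocarcinoma cells. The PSCs were primary lines of C57BL/6 wild-type mice of both sexes, aged 8 to 12 weeks, isolated by enzymatic digestion and a density gradient and used at passage 2 to 4. They grew in Matrigel in an insert above the mT3 organoids, in medium with 5% serum, and the whole coculture was kept at 21% O2 (normoxia, 3 samples) or 1% O2 (hypoxia, 3 samples) for 48 h. Both groups carried the tumor organoids, so no value here is from PSCs grown alone. The labels do not say whether the 3 samples of a group are separate cultures or animals, and the p-values therefore measure the spread between these samples, which may be technical. The libraries held 24749601 to 31925054 counts, and 3 counts corresponded to 0.0943 to 0.122 counts per 1000000 mapped counts (CPM). In bulk RNA of this kind, fewer cells of a type and less RNA per cell cannot be told apart.

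Cells make serine from the glycolytic intermediate 3-phosphoglycerate in a short chain of oxidation, transamination and dephosphorylation. Serine then gives a carbon unit to tetrahydrofolate and becomes glycine, in the mitochondria through Shmt2 or in the cytosol through Shmt1. The mitochondrial folate enzymes carry that unit to formate, which leaves for the cytosol and is rebuilt there into the folates that serve purine, thymidylate and methionine synthesis, or they burn it to carbon dioxide with a gain of NADPH. Serine synthesis and Mthfd2 are well known as targets of the stress-induced transcription factor Atf4.

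Of the 10 enzymes, 2 were called higher at 1% O2 (Mthfd1l and Aldh1l2) and 6 were called lower (Phgdh, Psat1, Psph, Mthfd2, Shmt1 and Mthfd1), where a call means a fold change beyond 1.5 with a Benjamini-Hochberg adjusted p under 0.05 in edgeR's quasi-likelihood test over all genes. Shmt2 and Mthfd2l were not called. Over all 16207 genes, 18.9% were called higher and 15.3% lower. In 8 of the 10 enzymes the 3 hypoxic and the 3 normoxic samples did not overlap, against 68.9% of all genes tested. The median log2 fold change was -0.90 over the 10 enzymes and 0.00 over all genes (-0.00398). Because these differences chose the set, nothing is read from the comparison with the background.

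The stretches before the RefSeq starts of 3 mitochondrial enzymes are shown because these genes went in different directions: Mthfd1l was higher, Mthfd2 lower and Shmt2 nearly level. Each is the 250 bases before the RefSeq transcription start (GRCm38.p6), read 5′ to 3′ on the gene's strand. For Mthfd2 this start, and so the stretch, lies inside the longer gene span that GENCODE gives. Capitals mark ACGTG on either strand (CACGT when read on the other strand), the core of the hypoxia response element that HIF proteins bind.
Mthfd1l (chr10:3972825-3973074, plus strand): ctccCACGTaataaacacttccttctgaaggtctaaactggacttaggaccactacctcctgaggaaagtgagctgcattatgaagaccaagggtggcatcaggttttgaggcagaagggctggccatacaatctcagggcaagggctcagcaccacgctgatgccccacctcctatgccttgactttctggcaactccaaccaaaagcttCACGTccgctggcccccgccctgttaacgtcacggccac
Mthfd2 (chr6:83317605-83317854, minus strand): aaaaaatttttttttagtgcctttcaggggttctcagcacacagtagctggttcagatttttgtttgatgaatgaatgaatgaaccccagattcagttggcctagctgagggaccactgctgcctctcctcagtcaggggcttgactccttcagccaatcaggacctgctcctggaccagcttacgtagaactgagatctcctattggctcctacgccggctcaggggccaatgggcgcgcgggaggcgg
Shmt2 (chr10:127522445-127522694, minus strand): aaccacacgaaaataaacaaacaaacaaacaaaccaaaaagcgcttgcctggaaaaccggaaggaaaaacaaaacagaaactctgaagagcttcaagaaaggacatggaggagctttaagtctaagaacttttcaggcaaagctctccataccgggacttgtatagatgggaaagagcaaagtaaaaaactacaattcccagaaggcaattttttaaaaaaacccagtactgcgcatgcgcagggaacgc

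Mthfd1l held ACGTG at 2 positions, -246 and -39 from the start, and the Mthfd2 and Shmt2 stretches held none. RefSeq promoter entries of 300 bases (250 before and 50 after the start) were found for 9 of the 10 enzymes, all but Aldh1l2. ACGTG was present in 3 of these 9 genes, counting a match at any start of a gene, and in 19.6% of all 32851 promoter entries, counting each start by itself. The other matches were in Psph at -153, which lies inside the first exon that GENCODE gives the gene, and in Psat1 at 5 bases past one of its 2 starts, so the genes with a match include 1 that was higher and 2 that were lower at 1% O2. CACGTG, the E-box that contains ACGTG and that Myc binds, was in 0 of 9 enzymes and 7.15% of all entries. TGATGNAA, the half-composite site of Atf4 and C/EBP proteins, was in 0 of 9 and 3.97% of all entries, and its longer form TGATGNAAT, which lies within the same matches, was in 0 of 9 and 0.965%. A match describes the letters of these windows and does not mark a bound site.

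All 3 enzymes of serine synthesis were lower at 1% O2 in every sample than in any sample at 21% O2. Phgdh (ENSMUSG00000053398, chr3:98313170-98339990, minus strand) encodes the dehydrogenase that opens the pathway. Its level, in CPM per kilobase of annotated exon, was 33.2, 25.5 and 28.1 in normoxic replicates 1 to 3 and 8.39, 9.20 and 9.23 in the hypoxic ones. The lowest normoxic sample was thus well above the highest hypoxic one, and the normoxic samples spread more widely than the hypoxic samples. The fitted log2 fold change was -1.69 ± 0.097 (SE), with mean CPM 3.23-fold lower at 1% O2.

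Reads of Phgdh could be shared with processed copies of the gene, and whether the counts of the copies are their own was not tested. The mouse annotation holds 12 processed pseudogenes with at least 95% identity to Phgdh over 100 or more bases, and 6 of them had counts. These copies held 9.99, 7.27 and 8.74% of the joint Phgdh and copy counts in normoxic replicates 1 to 3, and 6.84, 5.53 and 6.89% in the hypoxic ones. When copies and gene were summed, the level was 91.6, 68.4 and 76.5 CPM at 21% O2 against 22.4, 24.2 and 24.6 CPM at 1% O2, a log2 ratio of means of -1.73.

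Psat1 (ENSMUSG00000024640, chr19:15904678-15947337, minus strand) encodes the aminotransferase of the next step, which takes its nitrogen from glutamate. Its level was 21.1, 20.7 and 19.5 CPM per kilobase at 21% O2 and 10.4, 8.07 and 9.67 at 1% O2. All hypoxic samples were below all normoxic ones, with replicate 2 the lowest. The log2 fold change was -1.13 ± 0.088.

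Psph (ENSMUSG00000029446, chr5:129765558-129787449, minus strand) encodes the phosphatase that releases serine. It was the least abundant of the 3, at 5.19, 4.92 and 4.74 CPM per kilobase in normoxia and 2.70, 2.66 and 2.19 in hypoxia, with no overlap, and its log2 fold change was -0.98 ± 0.098. On the opposite strand, exons of Cct6a, a chaperonin subunit, cover 452 bases or 10.4% of the Psph exons. The strand setting used in counting is not given in the sources used here, so reads from this stretch could count for either gene. Cct6a had a log2 fold change of -0.10 and its samples overlapped between the groups.

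**Figure D1:**
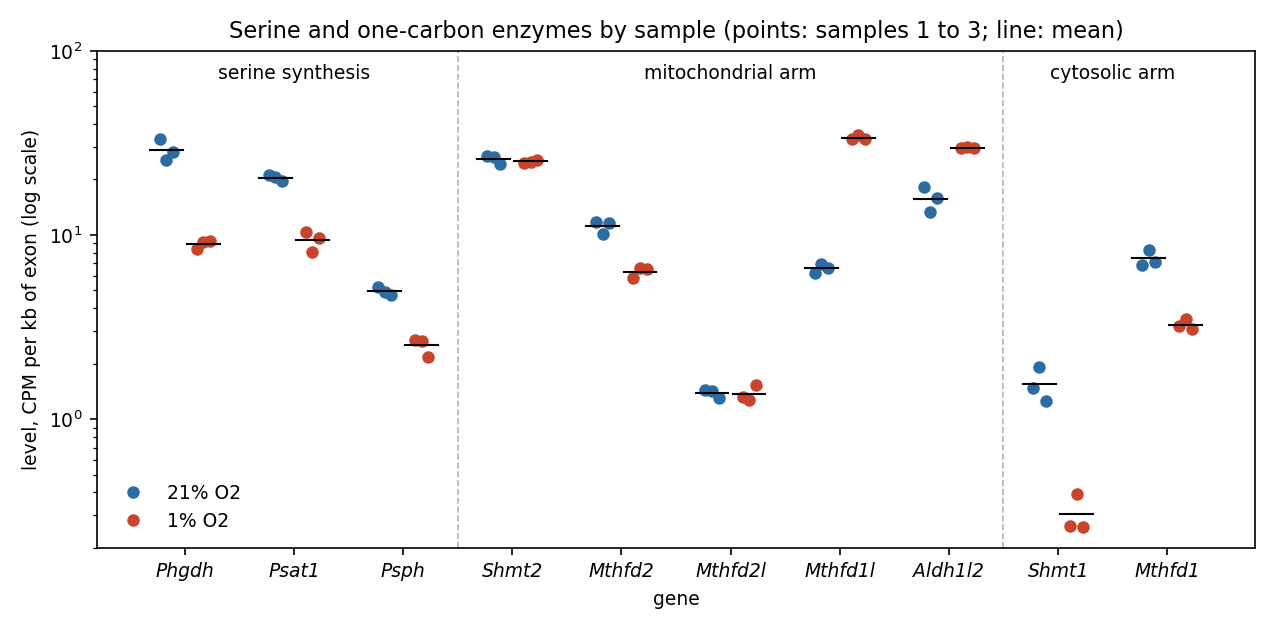
Level of each of the 10 enzymes in every sample, in CPM per kilobase of exon on a log axis, with genes on the horizontal axis grouped by arm; blue points are the 3 samples at 21% O2, red points the 3 at 1% O2, and black lines the group means. The blue and red points overlap only for Shmt2 and Mthfd2l, while Mthfd1l stands at 33.0 to 34.8 at 1% O2 against 6.23 to 6.94 at 21% O2.

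The mitochondrial arm did not move as a block, with 2 enzymes higher, 1 lower and 2 not called. Shmt2 (ENSMUSG00000025403, chr10:127517123-127522444, minus strand), the hydroxymethyltransferase through which serine enters the arm, stood at 26.7, 26.6 and 24.2 CPM per kilobase in normoxia and 24.7, 25.0 and 25.5 in hypoxia. The hypoxic values lay inside the normoxic range, and the log2 fold change of -0.04 ± 0.056 was smaller than its error. Shmt2 shares 32 exon bases, 1.03% of its exons, with Ndufa4l2 on the opposite strand, a mitochondrial protein gene whose mean level was 112 CPM at 21% O2 and 323 CPM at 1% O2.

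Mthfd2 (ENSMUSG00000005667, chr6:83305691-83325908, minus strand) encodes the dehydrogenase and cyclohydrolase of the next steps. It was lower at 1% O2, at 5.80, 6.64 and 6.50 CPM per kilobase against 11.7, 10.1 and 11.6 at 21% O2. The groups were apart, and the log2 fold change of -0.82 ± 0.082 was the smallest in size among the 6 enzymes called lower. Mthfd2l (ENSMUSG00000029376, chr5:90931117-91021368, plus strand), its close homolog, was low in both groups, at 1.44, 1.43 and 1.30 in normoxia and 1.32, 1.27 and 1.53 in hypoxia. Its groups overlapped, and the log2 fold change was -0.02 ± 0.11.

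Mthfd1l (ENSMUSG00000040675, chr10:3973118-4167081, plus strand), the synthetase that releases formate at the end of the mitochondrial route, had the highest log2 fold change of the 10. It rested on 718, 811 and 720 counts in normoxic replicates 1 to 3 and 3726, 4842 and 4671 counts in the hypoxic ones. Per kilobase of exon this was 6.23, 6.94 and 6.59 CPM against 33.0, 34.8 and 33.1 CPM. The samples of each group lay close together and far from the other group, and the log2 fold change was 2.35 ± 0.060, with mean CPM 5.11-fold higher at 1% O2.

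Aldh1l2 (ENSMUSG00000020256, chr10:83487450-83534140, minus strand) encodes the mitochondrial enzyme that oxidizes formyl-tetrahydrofolate to carbon dioxide and yields NADPH. Its level was 18.3, 13.2 and 15.8 CPM per kilobase in normoxia and 29.7, 29.9 and 29.5 in hypoxia. The hypoxic samples were nearly identical while the normoxic ones varied, with replicate 2 the lowest, and the log2 fold change was 0.91 ± 0.10. Exons of D10Wsu102e on the opposite strand cover 1056 bases, 14.1% of the Aldh1l2 exons. D10Wsu102e had a log2 fold change of 0.57 and was not called, with mean CPM of 47.8 at 21% O2 and 71.0 at 1% O2.

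Both enzymes of the cytosolic arm were lower. Shmt1 (ENSMUSG00000020534, chr11:60788104-60811718, minus strand), the cytosolic counterpart of Shmt2, was counted 149, 196 and 120 times in normoxic replicates 1 to 3 and 26, 48 and 32 times in the hypoxic ones. It was the lowest of the 10 enzymes in hypoxia, at 0.263, 0.394 and 0.259 CPM per kilobase against 1.48, 1.92 and 1.25 in normoxia. The groups were apart, replicate 2 was the highest in both, and the log2 fold change of -2.33 ± 0.24 had the widest error of the 10, on the fewest counts. Smcr8, on the opposite strand, covers 184 bases or 4.74% of the Shmt1 exons and had a log2 fold change of 0.01.

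Mthfd1 (ENSMUSG00000021048, chr12:76255298-76319803, plus strand) encodes the cytosolic enzyme that joins the synthetase, cyclohydrolase and dehydrogenase activities in a single chain. Its level was 6.88, 8.33 and 7.15 CPM per kilobase at 21% O2 and 3.22, 3.49 and 3.08 at 1% O2. Here too replicate 2 was the highest in each group and the groups were apart, with a log2 fold change of -1.19 ± 0.091.

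Added up per kilobase of exon, the 10 enzymes came to 132, 120 and 120 CPM in normoxia and 119, 122 and 120 CPM in hypoxia, so the sum was about the same while its parts differed. Serine synthesis held 45.0, 42.8 and 43.5% of the sum in normoxic replicates 1 to 3 and 17.9, 16.4 and 17.5% in the hypoxic ones. The mitochondrial arm held 48.6, 48.7 and 49.5% in normoxia and 79.1, 80.4 and 79.7% in hypoxia. The cytosolic arm was small in both, at 6.32, 8.56 and 6.99% against 2.91, 3.20 and 2.77%. The mitochondrial gain was in Mthfd1l and Aldh1l2, while the share of Mthfd2 was smaller at 1% O2 (5.24% against 8.99%). The share of Mthfd1l was 5.33% ± 0.556 (SD, n = 3) at 21% O2 and 27.9% ± 0.654 at 1% O2. For Aldh1l2 the shares were 12.7% ± 1.43 and 24.7% ± 0.219, and for Shmt2 they were 20.8% ± 1.18 and 20.8% ± 0.296.

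**Figure D2:**
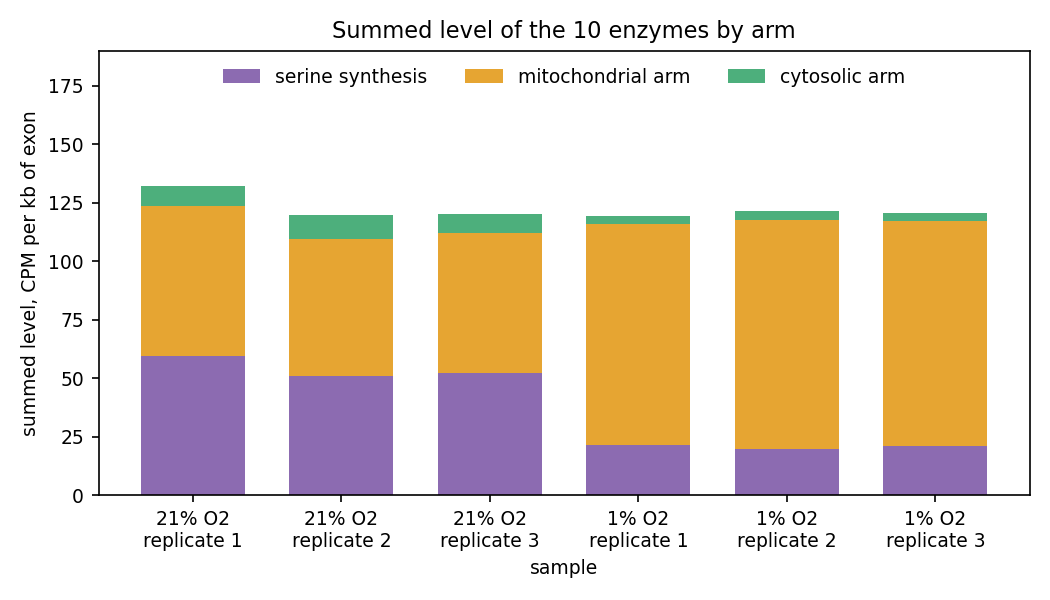
Summed level of the 10 enzymes in each sample (vertical axis, CPM per kilobase of exon, from 0), stacked by arm, with the 6 samples on the horizontal axis. The bars reach 119 to 132 in both groups, while the serine synthesis part is 51.2 to 59.5 at 21% O2 and 19.9 to 21.4 at 1% O2 and the mitochondrial part 58.3 to 64.3 and 94.6 to 97.7.

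The order of the levels differed between the groups. At 21% O2, Phgdh stood first at 28.9 ± 3.90 CPM per kilobase (SD, n = 3), followed by Shmt2 at 25.8 ± 1.40, Psat1 at 20.5 ± 0.845, Aldh1l2 at 15.8 ± 2.50 and Mthfd2 at 11.1 ± 0.906. Mthfd1 (7.45 ± 0.771), Mthfd1l (6.59 ± 0.354), Psph (4.95 ± 0.228), Shmt1 (1.55 ± 0.337) and Mthfd2l (1.39 ± 0.0781) came after them. Neighbours whose samples overlapped were Phgdh and Shmt2, Mthfd1 and Mthfd1l, and Shmt1 and Mthfd2l. At 1% O2, Mthfd1l stood first at 33.6 ± 1.04, then Aldh1l2 at 29.7 ± 0.241, Shmt2 at 25.1 ± 0.381 and, far below, Psat1 at 9.37 ± 1.17 and Phgdh at 8.94 ± 0.478, and of all neighbours in the hypoxic order only Psat1 and Phgdh overlapped.

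Ratios taken within each sample set the related enzymes against each other. Mthfd1l to Mthfd1, the mitochondrial and the cytosolic formyl-tetrahydrofolate synthetases, was 0.906, 0.833 and 0.921 in normoxic replicates 1 to 3 and 10.3, 9.98 and 10.8 in the hypoxic ones. The sides of this pair were thus near parity in normoxia and far apart in hypoxia. Mthfd1l to Mthfd2, the last against the middle step of the mitochondrial route, was 0.533, 0.687 and 0.566 in normoxia and 5.69, 5.24 and 5.09 in hypoxia. Shmt2 to Shmt1 was 18.0, 13.9 and 19.3 against 94.0, 63.4 and 98.3, and was lowest in replicate 2 of each group. Shmt2 differed little, so this ratio moved with Shmt1. Aldh1l2 was also set against Aldh1l1, its cytosolic homolog, which is not among the 10 enzymes: the ratio was 1.13, 0.594 and 0.867 in normoxia and 7.19, 6.76 and 6.68 in hypoxia. In contrast, Mthfd2 to Mthfd2l went the other way, from 8.04 ± 0.938 to 4.62 ± 0.541 (mean ± SD, n = 3).

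**Figure D3:**
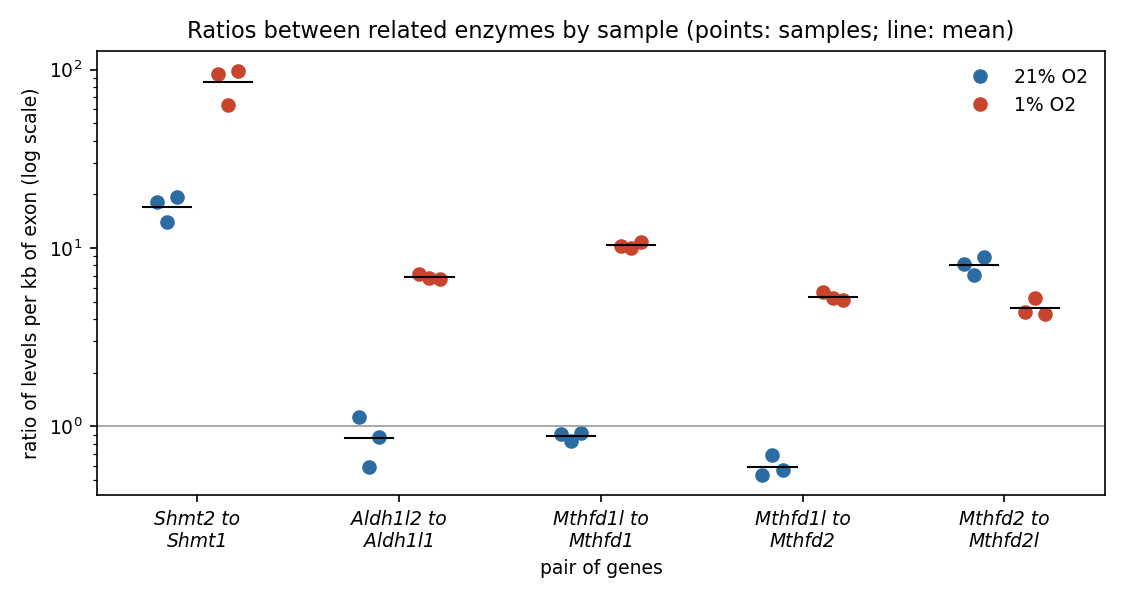
Ratio of 2 related enzymes within each sample (vertical axis, log scale, levels per kilobase of exon) for 5 pairs; blue points are samples at 21% O2, red points samples at 1% O2, black lines the means, and the grey line marks a ratio of 1. The red points lie above the blue ones for 4 pairs, with Mthfd1l to Mthfd1 at 9.98 to 10.8 against 0.833 to 0.921, and below them for Mthfd2 to Mthfd2l.

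To place the 10 enzymes in their pathway, 7 lists of neighbouring genes were read from the same fit. Of their 93 genes tested, 15 rose and 26 fell by the call above, and the adjusted p-values given for single genes are those of edgeR's quasi-likelihood test with Benjamini-Hochberg adjustment over all 16207 genes. The lists were drawn up with earlier results of these data known. Their counts are a description beside the 18.9% and 15.3% of all genes.

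Folate transport and interconversion had 1 of 15 tested genes that rose and 4 that fell, with a median log2 fold change of -0.28. Aldh1l1, which spends formyl-tetrahydrofolate in the cytosol, fell from 85.4 ± 14.1 to 19.5 ± 0.737 CPM (mean ± SD, n = 3; log2 fold change -2.13, adjusted p = 6.78e-07). An antisense gene, Gm15756, covers 11.0% of its exons and did not pass the filter on low counts. Tyms, the thymidylate synthase, had a log2 fold change of -1.46 (adjusted p = 3.52e-06). Folr1, a folate receptor, fell by 1.09 on the log2 scale (adjusted p = 0.000797). Mtr, the folate-dependent methionine synthase (log2 fold change -0.35, adjusted p = 0.00703), and Slc25a32, the mitochondrial folate carrier (log2 fold change 0.23, adjusted p = 0.0412), were within the fold limit and not called.

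The glycine cleavage and breakdown list had 1 of 9 tested genes that rose and 5 that fell, with a median of -0.64. The cleavage system takes glycine apart in mitochondria and hands its carbon to folate, and its subunits did not move together. Amt, the aminomethyltransferase, rose from 2.39, 5.09 and 3.89 CPM in normoxic replicates 1 to 3 to 12.9, 13.4 and 16.7 CPM in the hypoxic ones (log2 fold change 1.92 ± 0.23, adjusted p = 8.46e-05). Gldc, the decarboxylase of the same complex, fell from 6.62, 9.26 and 6.49 CPM to 1.34, 1.53 and 1.41 CPM (log2 fold change -2.38 ± 0.19, adjusted p = 8.63e-06). Gcsh, the lipoyl carrier protein between them, fell by 1.15 on the log2 scale (adjusted p = 2.55e-06). Per kilobase of exon, Gldc to Amt was 0.835 ± 0.240 at 21% O2 and 0.0404 ± 0.00604 at 1% O2. Gcat, which makes glycine from a threonine product, had a log2 fold change of -1.81 (adjusted p = 0.00014). However, a second identifier of the same name shares 1132 bases with it, 47.5% of its exons, so reads from this stretch could count for either. That second identifier was counted 69, 66 and 48 times in normoxia and 16, 10 and 0 times in hypoxia. Tdh and Dmgdh were at 0 counts in all 6 libraries.

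Among methionine cycle and transsulfuration genes, 7 of 11 fell and 0 rose in edgeR, with a median of -0.67. Likewise 0 rose in DESeq2 or limma-voom, and 0 were higher at an unadjusted p under 0.05. Gamt, the methyltransferase that makes creatine, fell from 9.26 ± 1.02 to 2.06 ± 0.440 CPM (log2 fold change -2.18, adjusted p = 8.28e-06). Nnmt, which methylates nicotinamide, fell by 1.15 on the log2 scale (adjusted p = 6.94e-06), and Ahcy, which clears S-adenosylhomocysteine, by 0.99 (adjusted p = 5.91e-06). Bhmt and Bhmt2, which methylate homocysteine without folate, were at 0 counts in all libraries. Of the 13 purine synthesis genes, 1 rose and 4 fell, with a median of -0.51. Impdh1, which turns the pathway to guanine nucleotides, rose from 46.6 ± 1.51 to 108 ± 1.43 CPM (log2 fold change 1.22, adjusted p = 1.83e-07). Its isozyme Impdh2 went the other way, from 91.5 ± 5.67 to 63.4 ± 3.50 CPM (log2 fold change -0.53, adjusted p = 0.000108). Impdh2 was within the fold limit and not called. Prps1 and Prps2, the synthetases of the ribose-phosphate donor, had log2 fold changes of -0.95 and -0.85 (adjusted p = 0.000183 and 1.41e-05), and Ppat, the committed step, one of -0.70 (adjusted p = 0.000687).

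Serine and glycine transporters were divided, with 3 of 10 that rose and 3 that fell and a median of 0.08. Slc6a9, a glycine transporter, rose by 0.70 on the log2 scale (adjusted p = 0.000115). Exons of Ccdc24 on the opposite strand cover 27.8% of its exons, and Ccdc24 was itself called higher, at a mean of 3.25 CPM in hypoxia. Slc38a2, a carrier of small neutral amino acids, rose by 0.61 (adjusted p = 0.000364), and this call fell within the fold limit without hypoxia replicate 1 (log2 fold change 0.54) or without normoxia replicate 2 (0.55). Slc38a4 had a log2 fold change of 1.42 on very low levels, at most 0.943 CPM in any sample (adjusted p = 0.0125), and was not called without hypoxia replicate 3 (adjusted p = 0.0562). Slc1a5, the main glutamine and neutral amino acid exchanger of many cells, fell from 251 ± 68.6 to 116 ± 15.8 CPM (log2 fold change -1.12, adjusted p = 0.000467). Sfxn1, which carries serine into mitochondria, fell from 81.0 ± 6.31 to 45.1 ± 0.900 CPM (log2 fold change -0.84, adjusted p = 6.45e-06), and its homolog Sfxn2 by 0.72 (adjusted p = 0.000543). Sfxn3, another homolog, went the other way, from 88.1 ± 5.02 to 114 ± 1.95 CPM (log2 fold change 0.37, adjusted p = 0.00038). It was within the fold limit and not called. Per kilobase of exon, Slc25a32 to Sfxn1 was 0.338 ± 0.0517 in normoxia and 0.704 ± 0.0312 in hypoxia.

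**Figure D4:**
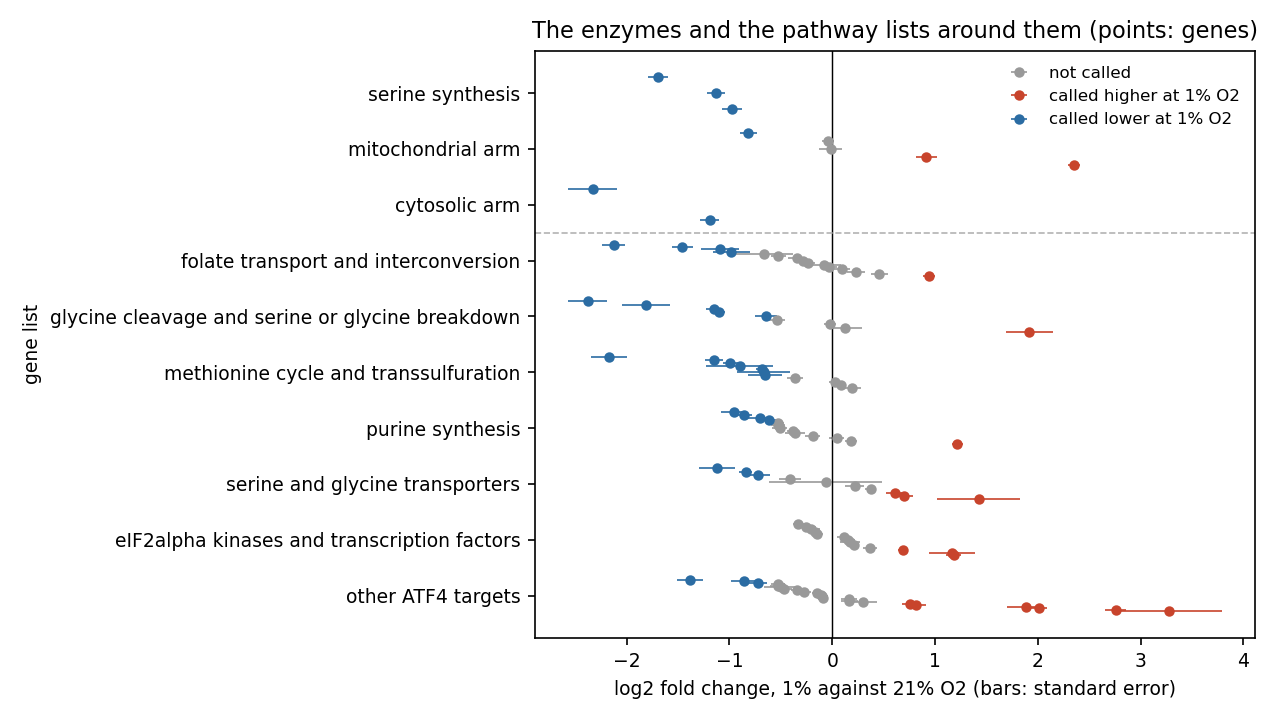
Log2 fold change of 1% against 21% O2 (horizontal axis, bars are standard errors) for each gene of the 3 arms, above the dashed line, and of the 7 lists around them, below it, with 1 point a gene; red points were called higher, blue points lower and grey points neither. The serine synthesis and cytosolic points are all blue, the mitochondrial points run from -0.82 to 2.35, and the methionine cycle list has no red point.

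Regulators upstream of serine synthesis were read as well. Among 13 eIF2alpha kinases and transcription factors, 3 rose and 0 fell by the call in edgeR, with a median of 0.16. DESeq2 and limma-voom also called 0 lower, and 5 were lower at an unadjusted p under 0.05. Atf4, the activator of serine synthesis genes, stood at 208, 198 and 196 CPM in normoxic replicates 1 to 3 and 222, 245 and 228 CPM in the hypoxic ones. Its log2 fold change of 0.21 ± 0.057 was within the fold limit (adjusted p = 0.0112), with every hypoxic sample above every normoxic one. Nfe2l2, which encodes the antioxidant factor Nrf2, rose by 0.69 (adjusted p = 5.92e-06), Nupr1 by 1.18 (adjusted p = 1.68e-06) and Atf3 by 1.16 (adjusted p = 0.00167). Myc had a log2 fold change of -0.25 (adjusted p = 0.0377), with overlapping samples.

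Other known Atf4 targets were split, with 6 of 22 that rose, 3 that fell and a median of -0.10. With the adjusted p under 0.05 alone, 6 were higher and 10 lower. Stc2, a secreted glycoprotein, rose from 18.3 ± 2.99 to 124 ± 2.05 CPM (log2 fold change 2.76, adjusted p = 9.00e-08), and Vldlr, a lipoprotein receptor that HIF proteins also induce, from 92.2 ± 11.1 to 371 ± 6.43 CPM (log2 fold change 2.01, adjusted p = 2.07e-07). Fgf21, a stress hormone, was near the counting floor in normoxia, at 0.0770, 0.342 and 0.0406 CPM, and at 1.88, 1.60 and 1.19 CPM in hypoxia. Its log2 fold change of 3.28 (adjusted p = 0.000471) was 4.61 without normoxia replicate 2. Gdf15, another stress hormone, fell from 43.3 ± 0.802 to 16.6 ± 3.60 CPM (log2 fold change -1.38, adjusted p = 1.95e-05), the amino acid exchanger Slc7a5 by 0.85 (adjusted p = 0.0004) and the alanine aminotransferase Gpt2 by 0.72 (adjusted p = 0.000108).

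Markers of other cell types and of growth were read beside these results. The sum of 16 proliferation markers was 471 to 564 CPM in normoxia and 177 to 198 CPM in hypoxia, and 14 of the 16 fell. Some folate and nucleotide genes above are known to follow the cell cycle, Tyms among them, and the part of this difference in the lower one-carbon enzymes was not tested. The 12 immune cell markers summed to 883 to 1570 CPM in normoxia and 451 to 810 CPM in hypoxia. Of the 10 tested, 7 fell and 0 rose in edgeR (0 in DESeq2, in limma-voom or at an unadjusted p under 0.05), and Cd3e, which marks T cells, was at 0. Lyz2, named here after its values were seen, made up most of the immune sum. It was at 653 to 1164 CPM in normoxia and 315 to 546 CPM in hypoxia. All 10 immune markers tested were highest in replicate 2 of both groups, as were both cytosolic enzymes, 1 of 5 mitochondrial enzymes (Mthfd1l) and 0 of 3 serine synthesis enzymes. The part of RNA from immune cells in these values was not tested. The 10 epithelial markers summed to 3.23 to 5.40 CPM in normoxia and 25.1 to 29.0 CPM in hypoxia. The difference came from Krt19, a keratin named here after its values were seen, at 27, 12 and 16 counts against 525, 681 and 760. Epcam, which defines the epithelium of the organoids, had 1 count in the 6 libraries together. The 12 stellate cell and fibroblast markers summed to 28600 to 35900 CPM and 30600 to 35500 CPM, with 2 that rose (Pdgfra and Pdpn) and 3 that fell (Lum, Thy1 and Acta2). The collagens Col1a1, Col1a2 and Col3a1 made up most of this sum, and Des, a defining marker of stellate cells, was at 10.5 to 19.0 CPM. The 5 endothelial markers summed to 8.65 to 13.8 and 13.9 to 19.8 CPM, with Tek called higher and Kdr lower. These 7 markers were named after their values were seen. All 8 genes of a hypoxia check list rose, from a sum of 2330 to 2820 CPM to one of 8330 to 8510 CPM.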

How the data were processed

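RNA of the cocultured PSCs was sequenced as polyA libraries, 3 at 21% and 3 at 1% O2. The authors trimmed reads with Cutadapt, aligned them with STAR 2.6.1b to GRCm38 and estimated gene counts with RSEM 1.3.1 (versions per the labels). The deposited table holds expected counts, here all whole numbers, and no value needed rounding. The annotation release and the strand setting are not given in the sources used here.

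Ensembl identifiers were matched to GENCODE M21 names (55240 of 55426 features matched). Counts were filtered with filterByExpr, scaled by TMM and fitted by group with edgeR 4.0.16 (glmQLFit, glmQLFTest; R 4.3.3). The 16207 genes kept were adjusted together by the Benjamini-Hochberg method, and a call needed a fold change beyond 1.5 and an adjusted p under 0.05, the limits of the study's own DESeq2 test. Levels between genes are CPM per kilobase of merged exon. Promoters came from RefSeq, and near-identical copies were sought with blastn 2.17.0. The fitting procedure was tested on simulated data.

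All 10 enzymes are named. Of each pathway list, up to 3 called genes with the highest and 3 with the lowest log2 fold change are named, besides Tyms, Mtr, Slc25a32, Atf4, Myc and Nfe2l2, and some results of the folate list are not reported here. Genes at 0 counts in every library, Impdh2, Sfxn3 and markers of the other cell types were named after their values were seen. The 10 genes and all lists were chosen with earlier results of these data known. Alternatives covered scaling, filters, thresholds, DESeq2 1.42.0, limma-voom 3.58.1, a replicate block and each sample left out. Replicates of a group differed by more than sampling noise (chi-square per degree of freedom 5.68 to 22.5), so no pair was treated as repeat deposits of a library. This does not show that they are separate cultures. Same-numbered samples were checked for pairing. The labels do not state that equal numbers pair samples, so the main fit had no replicate term. A fit with the replicate number as a block is given below. The limit of 3 counts covers counting error only, while SEs and SDs include the spread between samples.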

Additional observations from a re-analysis of the deposited data

How the results depend on the processing

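Under all 6 left-out samples and every alternative except the stricter fold limit, 2 of the 10 enzymes were called higher and 6 lower. With a fold change beyond 2, 1 enzyme was called higher (Mthfd1l) and 4 lower, and Psph, Mthfd2 and Aldh1l2 were no longer called. At that limit 3156 of all genes were called in place of 5547 (1929 higher and 1227 lower), and 9 pathway genes rose and 11 fell in place of 15 and 26. With the adjusted p alone, 10168 genes were called (5150 higher and 5018 lower), with 21 pathway genes higher and 50 lower. Leaving out each sample gave 5144 to 5529 calls over all genes, and 14 to 15 pathway genes that rose and 23 to 26 that fell. These alternatives were run for the 10 enzymes and 35 pathway genes, and among them only Mthfd2l, which was never called, changed sign, between -0.11 and 0.04. Over left-out samples the log2 fold change was 2.31 to 2.39 for Mthfd1l, 0.80 to 1.03 for Aldh1l2, -1.78 to -1.58 for Phgdh and -2.57 to -2.15 for Shmt1. Slc38a4 was also lost with DESeq2 and the replicate block (adjusted p = 0.0958). Same-numbered samples deviated together with correlations of 0.22, 0.19 and 0.053, and each of the 6 samples matched its own number best, a hint from the data and not from the design. The fit with the replicate number as a block called 5572 genes, of which 5467 were shared with the fit without it, with 2 enzymes higher and 6 lower, and 15 and 26 pathway genes. Other scalings moved the median of all genes by -0.0236 to 0.00289 (log2), and leaving out the filter on low counts, which brought the genes tested to 27207, by 0.0584.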

Other observations

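Replicate 2 was the highest sample of both groups for 7 of 13 purine synthesis genes, 7 of 16 proliferation markers, 4 of 9 glycine cleavage and breakdown genes and 3 of 22 other Atf4 targets, next to 10 of 10 immune cell markers. These counts are given as values, and what they share was not tested.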
